A study of Mus musculus with 9 samples.

Results

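Expression of 7 genes of purine breakdown and salvage was examined in mouse epidermis after loss of the lipoxygenase Alox12b: urate oxidase (Uox), xanthine dehydrogenase (Xdh), guanine deaminase (Gda), adenosine deaminase (Ada), purine nucleoside phosphorylase (Pnp), hypoxanthine-guanine phosphoribosyltransferase (Hprt) and adenine phosphoribosyltransferase (Aprt). Every probe set assigned to 1 of these symbols alone was taken, which gave 10 of 45037 probe sets and all 7 genes out of 18193 named on the array. The genes were chosen with the difference between the same 2 groups of arrays already known. Their differences are therefore given as a description, without p-values, and support nothing by themselves.

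Affymetrix whole-genome mouse arrays were hybridised with epidermal RNA of 9 mice, 1 array per mouse. In 5 mice, genotype p/p +/cre, both Alox12b alleles were floxed and a Cre-ERT2 recombinase that needs tamoxifen was expressed from the keratin K14 promoter, which is active in basal keratinocytes; these are called inactivated. In 4 littermates, genotype p/p +/+, the alleles were floxed but no Cre was present; these are called controls. All 9 mice were of the hairless SKH1 background (5 generations of backcrossing), were 8 weeks old, received 3 intraperitoneal injections of 1 mg tamoxifen in oil, and were killed 6 days after the treatment. The epidermis was scratched off frozen skin. Because controls lacked Cre, loss of Alox12b and active Cre cannot be told apart in these arrays.

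Purines from RNA, DNA and ATP are broken down by converging steps. Adenosine is deaminated to inosine by Ada, nucleosides are split to free bases by Pnp, guanine is deaminated by Gda, hypoxanthine and xanthine are oxidised to urate by Xdh, and urate is oxidised by Uox on the way to allantoin. Hprt and Aprt run the other way and return free bases to the nucleotide pool. Uox is best known as a liver enzyme of peroxisomes and is a pseudogene in humans, in whom urate is the end product.

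The arrays' medians ran from 4.34 to 4.42 and their highest values from 13.47 to 13.53 on the log2 scale of the deposited table. Inactivated replicate 5 stood apart from the other inactivated arrays for several of the genes below, and values without it are given. The keratinocyte markers had a summed level of 15.22 to 15.50 (log2 of the summed linear values of 7 genes) on the inactivated arrays and of 15.41 to 15.48 on the controls. This sum rests mostly on markers near the arrays' highest values (up to 13.51), so it could differ little. Within it, Krt14 was higher by 0.47 ± 0.06 (limma adjusted p = 0.000445). Trp63 had a difference of -0.35 ± 0.09 (limma adjusted p = 0.0115), and the other 5 did not pass. Alox12b, read by 1 probe set (1418266_at), had 10.07, 10.17, 10.04, 9.67 and 9.5 on inactivated replicates 1 to 5 and 9.40, 9.33, 9.20 and 9.19 on control replicates 1 to 4 (difference 0.61 ± 0.14, limma adjusted p = 0.00694). Where this probe set lies with respect to the loxP sites is not given in the sources used here, and its level therefore checks nothing about the deletion. Xist and Y-linked probe sets read as 3 females and 2 males among the inactivated mice and 1 female and 3 males among the controls.

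To show the stretch of genome in front of the genes, the 250 bases upstream of the annotated start are printed below for Uox and Ada, which had the largest differences, for Pnp, which was lower, and for Hprt, whose values varied least within the inactivated group. They come from RefSeq, build GRCm38.p6, whose promoter table held 6 of the 7 genes (all but Xdh). Each is written 5′ to 3′ on the strand of the gene: chr3:146596899-146597148, plus strand, for Uox; chr2:163750240-163750489, minus strand, for Ada; chr14:50944053-50944302, plus strand, for Pnp; and chrX:52987828-52988077, plus strand, for Hprt. Capitals mark the GC box GGGCGG on either strand.
Uox: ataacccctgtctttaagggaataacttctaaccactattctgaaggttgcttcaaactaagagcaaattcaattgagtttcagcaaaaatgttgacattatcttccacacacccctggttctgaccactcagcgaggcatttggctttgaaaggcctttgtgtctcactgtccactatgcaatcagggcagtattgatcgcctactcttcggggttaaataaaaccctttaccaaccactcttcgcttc
Ada: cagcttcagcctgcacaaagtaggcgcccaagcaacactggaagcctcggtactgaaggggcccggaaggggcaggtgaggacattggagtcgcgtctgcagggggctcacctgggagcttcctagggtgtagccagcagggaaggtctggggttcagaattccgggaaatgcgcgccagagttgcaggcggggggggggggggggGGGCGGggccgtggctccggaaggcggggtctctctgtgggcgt
Pnp: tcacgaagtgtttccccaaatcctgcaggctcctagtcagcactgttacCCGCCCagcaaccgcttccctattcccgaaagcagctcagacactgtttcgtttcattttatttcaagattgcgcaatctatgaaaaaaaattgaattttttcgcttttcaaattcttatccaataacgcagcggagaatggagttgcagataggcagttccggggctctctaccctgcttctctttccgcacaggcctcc
Hprt: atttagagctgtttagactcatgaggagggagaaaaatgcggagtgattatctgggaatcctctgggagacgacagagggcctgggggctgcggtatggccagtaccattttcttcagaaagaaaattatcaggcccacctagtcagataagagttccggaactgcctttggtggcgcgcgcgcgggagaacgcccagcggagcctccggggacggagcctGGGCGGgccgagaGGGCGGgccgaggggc

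The windows differed in base composition. The Uox window held 42.8% G and C and 4 CG dinucleotides, and 17.9% of the 32851 windows in the table had a lower share of G and C. The Ada window held 67.2% and 14, Hprt 59.6% and 17, Aprt 58.4% and 11, Gda 50% and 5, and Pnp 46.8% and 11, against a median of 52.4% and 6 over all windows. At least 1 GC box was found in front of Ada, Pnp, Hprt and Aprt and in 32.7% of all windows, and none was found in front of Uox or Gda. The AP-1 letters TGANTCA occurred once, in front of Aprt, and in 6.75% of all windows. The TATA box TATAAA (12.4% of all windows) and the antioxidant response element TGACNNNGC (10.2% of all windows) were absent from all 6. All motifs were searched on both strands, AP-1 and the antioxidant response element can overlap in their first letters, and a match is a description of letters only.

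Uox, the last enzyme of the group, differed most. Its probe set (1422604_at) had 9.43, 9.28, 9.23, 9.35 and 7.92 on inactivated replicates 1 to 5. On control replicates 1 to 4 it had 3.97, 3.78, 3.57 and 4.42. No array of either group came near the other, and inactivated replicate 5 differed by -1.40 from the mean of the other inactivated arrays. The control values were dim, below the array's own median on 3 of 4 arrays. No detection call was used here, so whether they lie above background is not known, and the fold is that of the deposited values only. The means were 9.04 ± 0.63 (SD, n = 5) and 3.93 ± 0.36 (SD, n = 4). The difference, inactivated minus control, was 5.11 ± 0.30 (limma SE), or 34.5-fold, and 5.39 without inactivated replicate 5. By size of the positive difference Uox ranked 8 among the 18193 genes.

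The gene Dnase2b, an acid endonuclease gene, overlaps Uox in the RefSeq table of GRCm38.p6 and runs on the opposite strand. Its probe set (1450237_at) was dim, with 2.65, 2.31, 2.05, 2.49 and 2.20 on inactivated replicates 1 to 5 and 2.02, 2.20, 2.23 and 1.93 on control replicates 1 to 4. The groups overlapped, and the difference was 0.24 ± 0.12 (limma with Benjamini-Hochberg adjusted p = 0.172). The next gene on the other side, the noncoding Gm16325, had no probe set named for it.

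Hepatocyte markers were low on every array. Of 7 measured markers, 5 lay below the array's median on all 9 arrays, and the brightest value of any was 5.32. Their summed level was 6.45 to 6.65 on the inactivated arrays and 6.17 to 6.24 on the controls, and 2 of 7 passed, both higher: Ttr by 0.38 ± 0.07 (limma adjusted p = 0.00228) and Apoa1 by 0.49 ± 0.11 (limma adjusted p = 0.00691). The other 5 (Apoa2, Tat, Alb, Fgb and Cps1) did not pass and had no value above 3.52. The share that passed, all as higher, was 28.6%. Of all genes 34.4% passed in either direction and 15.5% as higher. The part of liver RNA in the Uox values was not tested.

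Xdh, which makes the urate that Uox uses, was higher on every inactivated array. Its probe set (1451006_at) had 9.95, 9.65, 9.81, 9.71 and 9.80 on inactivated replicates 1 to 5 and 8.58, 8.43, 8.51 and 8.70 on control replicates 1 to 4. The groups were separated by more than their own ranges. The difference was 1.23 ± 0.08, or 2.34-fold, and 1.22 without inactivated replicate 5.

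Ada, which deaminates adenosine and deoxyadenosine, had the second largest difference. Its probe set (1417976_at) had 8.22, 8.48, 8.22, 8.5 and 7.84 on inactivated replicates 1 to 5. The controls had 4.98, 4.95, 4.73 and 4.99. The groups lay far apart, replicate 5 was again the lowest inactivated array, and all 4 controls were above their array's median. The difference was 3.34 ± 0.13, or 10.1-fold, and 3.44 without replicate 5.

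Ada is abundant in T cells. Of 5 measured T cell markers, 4 were lower and none higher, where 18.9% of all genes were lower and 15.5% higher. Their summed level was 8.33 to 8.89 on the inactivated arrays and 9.82 to 10.25 on the controls. The macrophage markers had a summed level of 11.34 to 12.17 on the inactivated arrays and 12.15 to 12.43 on the controls, with 1 of 8 higher and 4 lower. The fibroblast markers were lower in 7 of 7, with 13.11 to 13.87 on the inactivated arrays and 14.00 to 14.65 on the controls. The part of these other cells in the values of the 7 genes was not tested, and in a bulk sample fewer cells of a type and less RNA per cell cannot be told apart.

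Pnp, which splits inosine and guanosine, was the 1 member with lower values in the inactivated group. Its probe set (1416530_a_at) had 8.70, 8.67, 8.42, 9.0 and 9.05 on inactivated replicates 1 to 5 and 9.62, 9.34, 9.46 and 9.63 on control replicates 1 to 4. Every inactivated array lay below every control. The difference was -0.75 ± 0.13 (1.68-fold lower), and -0.82 without inactivated replicate 5. A near-identical gene, Pnp2, lies in the mouse genome, and the annotation assigns 1 further probe set to both, which was not used, so the Pnp value may include its copy.

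Gda, which turns guanine into xanthine, split the inactivated group. Its 3 probe sets gave differences of 0.20 ± 0.15 (1435748_at), 0.29 ± 0.20 (1435749_at) and 0.57 ± 0.22 (1422868_s_at), and none passed. On 1435748_at the values were 9.11, 8.43, 9.21, 9.10 and 8.75 on inactivated replicates 1 to 5, against 8.79, 8.68, 8.62 and 8.78 on control replicates 1 to 4. Replicates 1, 3 and 4 lay above all controls, replicate 2 lay below them, and replicate 5 lay among them. The 2 other probe sets gave the same 3 high and 2 low inactivated arrays, with 6.90, 5.96, 6.63, 6.75 and 5.85 on 1422868_s_at and 9.15, 8.46, 9.10, 9.10 and 8.27 on 1435749_at. The same pair of inactivated arrays was lowest in 4 of 7 endothelial, 3 of 8 macrophage and 2 of 6 neutrophil markers, and in 9.37% of all genes. The keratinocyte, fibroblast and adipocyte lists had 1 such gene each, and the remaining marker lists had 0. The summed level of the endothelial markers was 9.19, 8.50, 9.16, 9.05 and 8.57 on inactivated replicates 1 to 5, and 8.26 to 8.67 on the controls. Replicates 1, 3 and 4 thus lay above all controls, and 2 and 5 among them. That of the macrophage markers was 12.17, 11.34, 11.72, 12.04 and 11.64, and 12.15 to 12.43 on the controls. There, replicates 2 to 5 lay below all controls. The part of these cells in the Gda values, and in those of Slc2a9 below, was not tested. Without inactivated replicate 2 the difference on 1435748_at was 0.33 and passed the threshold.

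The salvage enzymes were both higher by less than 2-fold. Hprt, which rebuilds IMP and GMP, had 10, 9.98, 9.96, 10.04 and 10.01 on inactivated replicates 1 to 5 (1448736_a_at) and 9.52, 9.36, 9.35 and 9.43 on control replicates 1 to 4. Its inactivated values had an SD of 0.03 (n = 5), the narrowest spread of the 7 genes. The difference was 0.58 ± 0.06 (1.49-fold). Hprt lies on the X chromosome, and with the sex of each mouse in the model the difference was 0.56.

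Aprt, which rebuilds AMP from adenine, had 9.10, 9.18, 9.30, 9.15 and 9.33 on inactivated replicates 1 to 5 and 8.51, 8.41, 8.56 and 8.57 on control replicates 1 to 4 (1451703_s_at). The groups did not overlap, and the second probe set, 1423801_a_at, was likewise higher on every inactivated array. The differences were 0.70 ± 0.07 and 0.58 ± 0.09. In both salvage genes replicate 5 was not the low array: it stood 0.15 and 0.20 above the mean of the other inactivated arrays on the Aprt probe sets and 0.02 above it for Hprt.

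**Figure D1:**
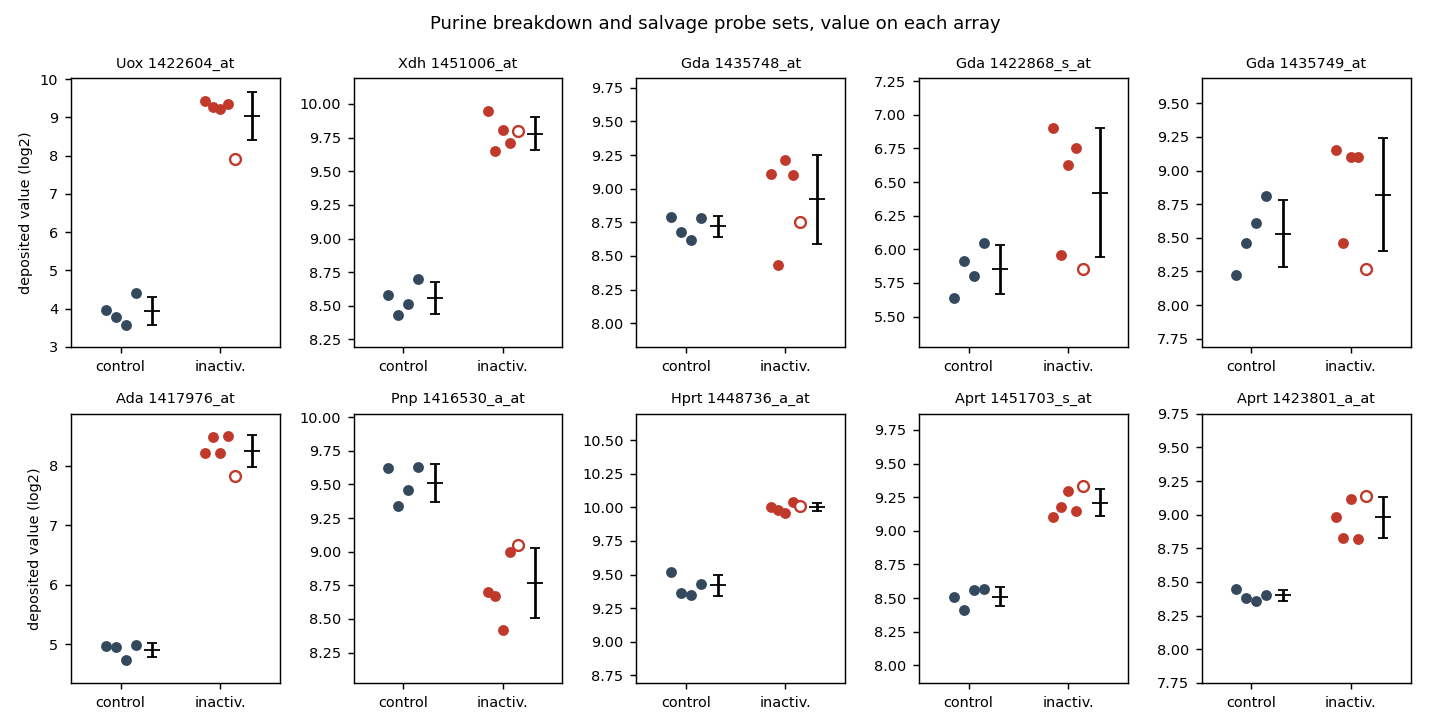
Deposited log2 value of each of the 10 probe sets on the 4 control arrays (dark blue) and the 5 inactivated arrays (red; replicate 5 is the open circle), with the mean and SD at the right of each group; each panel has its own vertical range. Groups are separate for Uox, Xdh, Ada, Pnp, Hprt and Aprt and overlap for the 3 Gda probe sets, where replicates 2 and 5 are the lowest inactivated arrays.

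By count, 5 of 7 genes passed an adjusted p of 0.05 as higher and 1 as lower, where 34.4% of all genes passed in either direction (15.5% higher and 18.9% lower). In 6 of 7 genes every inactivated array lay on 1 side of all controls, as in 31.6% of all genes. The members' median difference was 0.70, and that of all genes was 0.03. As the genes were chosen on this contrast, nothing is read from these counts. Of the 10 probe sets 7 passed and the same 7 showed no overlap, against 28.6% and 25.7% of all probe sets.

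The genes whose values over the 9 arrays were closest to those of Uox were sought by the root mean square difference after each gene's control mean was subtracted, over 18192 other genes. They were Sprr2f (0.26), Pla2g4d (0.35), Sprr2j-ps (0.40), Lce3a (0.51) and Spink12 (0.54), in log2 units. Sprr2f and Lce3a encode proteins of the cornified envelope, Pla2g4d a phospholipase and Spink12 a protease inhibitor of the Kazal family. All 5 had a lower value on inactivated replicate 5 than their inactivated mean. The choice by closeness to Uox, which was itself low on that array, favours this. Spink12 was about as low on inactivated replicate 1 (8.56) as on replicate 5 (8.53). As likeness in these values rests largely on the gap between the groups, it is a description of 9 arrays only.

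**Figure D2:**
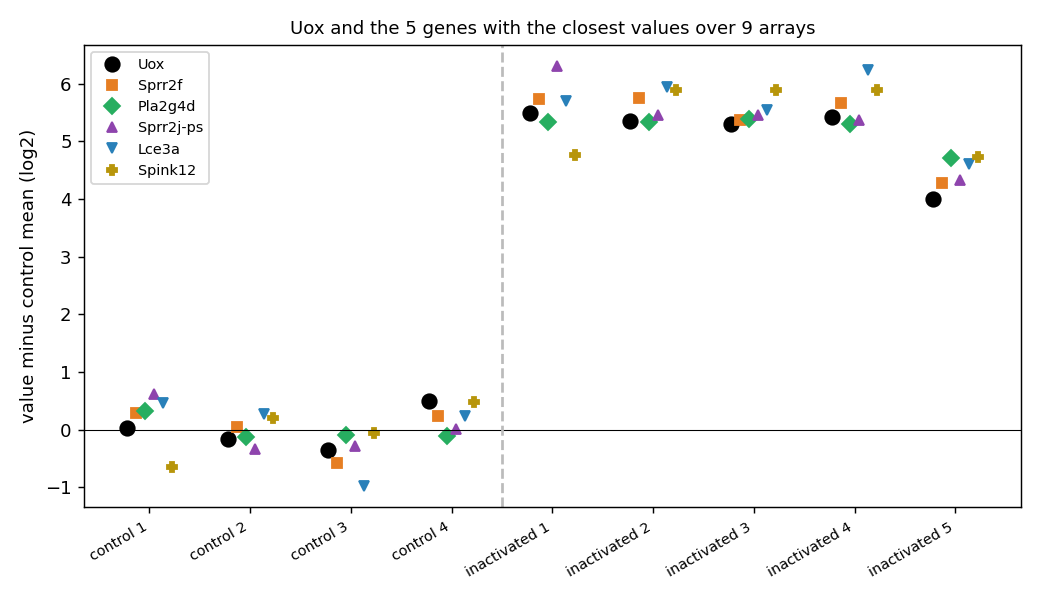
Value minus the gene's control mean (log2) on each of the 9 arrays for Uox and the 5 genes closest to it, with controls left of the dashed line. Inactivated values lie between 3.99 and 6.31, and Uox has 5.30 to 5.49 on replicates 1 to 4 and 3.99 on replicate 5.

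The remaining purine genes were taken from 7 lists by textbook role. The lists were chosen with earlier results of these data known, so the counts below describe these lists only. Of 80 genes listed, 64 were measured, and of these 18 rose and 15 fell (51.6% passed, against 34.4% of all genes; limma with Benjamini-Hochberg adjustment over all probe sets). The other 31 did not pass. The median difference over all 64 was 0.12. The number that rose was 10 without control replicate 3, and from 13 to 18 without any other single array; the number that fell was 12 to 16. Of these genes, 6 changed by at least 2-fold (Slc2a9, Slc28a3, Ampd1, Urah and Samhd1 higher, Suox lower), as did 5.77% of all genes.

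Of the genes listed for steps after urate oxidase, 2 were measured and both rose (over all genes, 15.5% rose and 18.9% fell). Urah hydrolyses the product of Uox. Its probe set 1431786_s_at had 12.56, 12.66, 12.57, 12.61 and 12.43 on inactivated replicates 1 to 5 and 11.71, 11.35, 11.31 and 11.48 on control replicates 1 to 4. The groups were apart, with values near the top of the array range. The rise was 1.10 ± 0.09 (2.15-fold, limma adjusted p = 2.06e-05), and the other Urah probe set rose by 0.92 ± 0.10. The allantoicase gene Allc, named after its values were seen, was dim and rose by 0.27 ± 0.07 (limma adjusted p = 0.0164), and its other probe set did not pass.

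Transporters of nucleosides and urate rose in 5 of 13 genes and fell in 2 (over all genes, 15.5% rose and 18.9% fell). Slc2a9, which carries urate across membranes, had 5.29, 4.47, 5.77, 5.41 and 4.49 on inactivated replicates 1 to 5 and 3.34, 3.18, 3.44 and 3.82 on control replicates 1 to 4. On this probe set (1426568_at) all inactivated arrays were above the controls, with replicates 2 and 5 lowest, as they were for Gda. The control values were dim, all under the lowest array median of 4.34, and the fold is subject to the same limit as that of Uox. Slc2a9 rose by 1.64 ± 0.26 (3.12-fold, limma adjusted p = 0.0011), and by 0.41 ± 0.11 on its second probe set, or 1.03 with both averaged. That second probe set (1440873_at) did not repeat the low pair. It had 4.76, 4.33, 4.33, 4.22 and 4.21 on inactivated replicates 1 to 5, with replicates 4 and 5 lowest.

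The sodium-coupled nucleoside carrier Slc28a3 had 6.88, 7.42, 7.13, 7.05 and 6.82 on inactivated replicates 1 to 5 and 5.79, 5.82, 5.91 and 6.07 on control replicates 1 to 4. It rose by 1.16 ± 0.12 (2.23-fold, limma adjusted p = 7.8e-05), and its other 2 probe sets also rose, by 1.98 ± 0.15 and 0.61 ± 0.15. The ABC transporter Abcc4, which exports nucleotides and other organic anions, fell by 0.72 ± 0.10 (limma adjusted p = 0.000542).

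Steps from nucleotide to nucleoside had 5 of 13 genes higher and 3 lower, against 15.5% and 18.9% of all genes. The AMP deaminase Ampd1, known from skeletal muscle, was dim and had 4.05, 3.92, 4.04, 4.03 and 3.37 on inactivated replicates 1 to 5 and 2.81, 2.71, 2.83 and 2.61 on control replicates 1 to 4. It rose by 1.14 ± 0.14 (limma adjusted p = 0.000182). Skeletal muscle markers had a summed level of 6.29 to 9.99 on the inactivated arrays, highest on replicate 4, against 6.21 to 6.59 on the controls. The part of muscle RNA in the Ampd1 values was not tested. Ampd3, a further AMP deaminase, rose by 0.69 ± 0.08 (limma adjusted p = 0.000147). Samhd1, which removes deoxynucleotides, rose by 1.05 ± 0.17 (limma adjusted p = 0.00123); its 5 probe sets all had a positive difference, but only 3 passed, and their average rose by 0.52.

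Of 8 genes for salvage kinases and the synthesis of phosphoribosyl pyrophosphate (PRPP), 1 rose and 4 fell, beside 15.5% and 18.9% of all genes. Adenosine kinase (Adk), which competes with Ada for adenosine, had 8.10, 8.18, 8.04, 8.19 and 8.44 on inactivated replicates 1 to 5 and 8.92, 8.95, 9.12 and 9.11 on control replicates 1 to 4. It fell by 0.84 ± 0.09 (1.78-fold lower, limma adjusted p = 0.000102), so that on every inactivated array Adk was below all controls while Ada was above them. Of its 6 probe sets 3 passed, all lower, and 2 dim ones that did not pass had positive differences. The average of the 6 fell by 0.39. Prps1, which makes the PRPP that Hprt and Aprt consume, rose by 0.62 ± 0.08 (limma adjusted p = 0.000255).

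De novo synthesis rose in 2 of 10 genes and fell in 3, where 15.5% of all genes rose and 18.9% fell, so that the rises were near the share over all genes. Paics, which carries out steps in the middle of that route, fell by 0.58 ± 0.11 (limma adjusted p = 0.00297), and Adss, which starts the branch from IMP to AMP, fell by 0.39 ± 0.09 (limma adjusted p = 0.00755). The other 5 of the 10 genes did not pass.

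Xdh needs a molybdenum cofactor, and of 9 genes of that cofactor and of related oxidases 2 rose, 1 fell and 6 did not pass. The share that passed, 33.3%, was near the 34.4% of all genes. Suox, the sulfite oxidase that uses the same cofactor, had 4.61, 4.70, 4.80, 4.51 and 4.77 on inactivated replicates 1 to 5 and 5.94, 5.98, 6.00 and 5.86 on control replicates 1 to 4. Its groups were far apart in the direction opposite to Xdh, and it fell by 1.27 ± 0.08 (2.41-fold lower, limma adjusted p = 3.52e-06). Mocos, which adds the sulfur that Xdh needs, rose by 0.55 ± 0.14 (limma adjusted p = 0.0164), but did not pass without control replicate 3 (limma adjusted p = 0.052).

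Extracellular nucleotide breakdown and adenosine receptors had 1 of 9 genes higher, 2 lower and 6 not passing, and the share that passed (33.3%) was likewise near the 34.4% of all genes. The ectonucleotidase Entpd2, which degrades ATP outside the cell, fell by 0.79 ± 0.10 (limma adjusted p = 0.000238). Enpp3, an ectonucleotide pyrophosphatase, fell by 0.73 ± 0.16 (limma adjusted p = 0.0056); 3 of its 5 probe sets shared that sign and 2 passed, and the average of the 5 fell by 0.41.

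**Figure D3:**
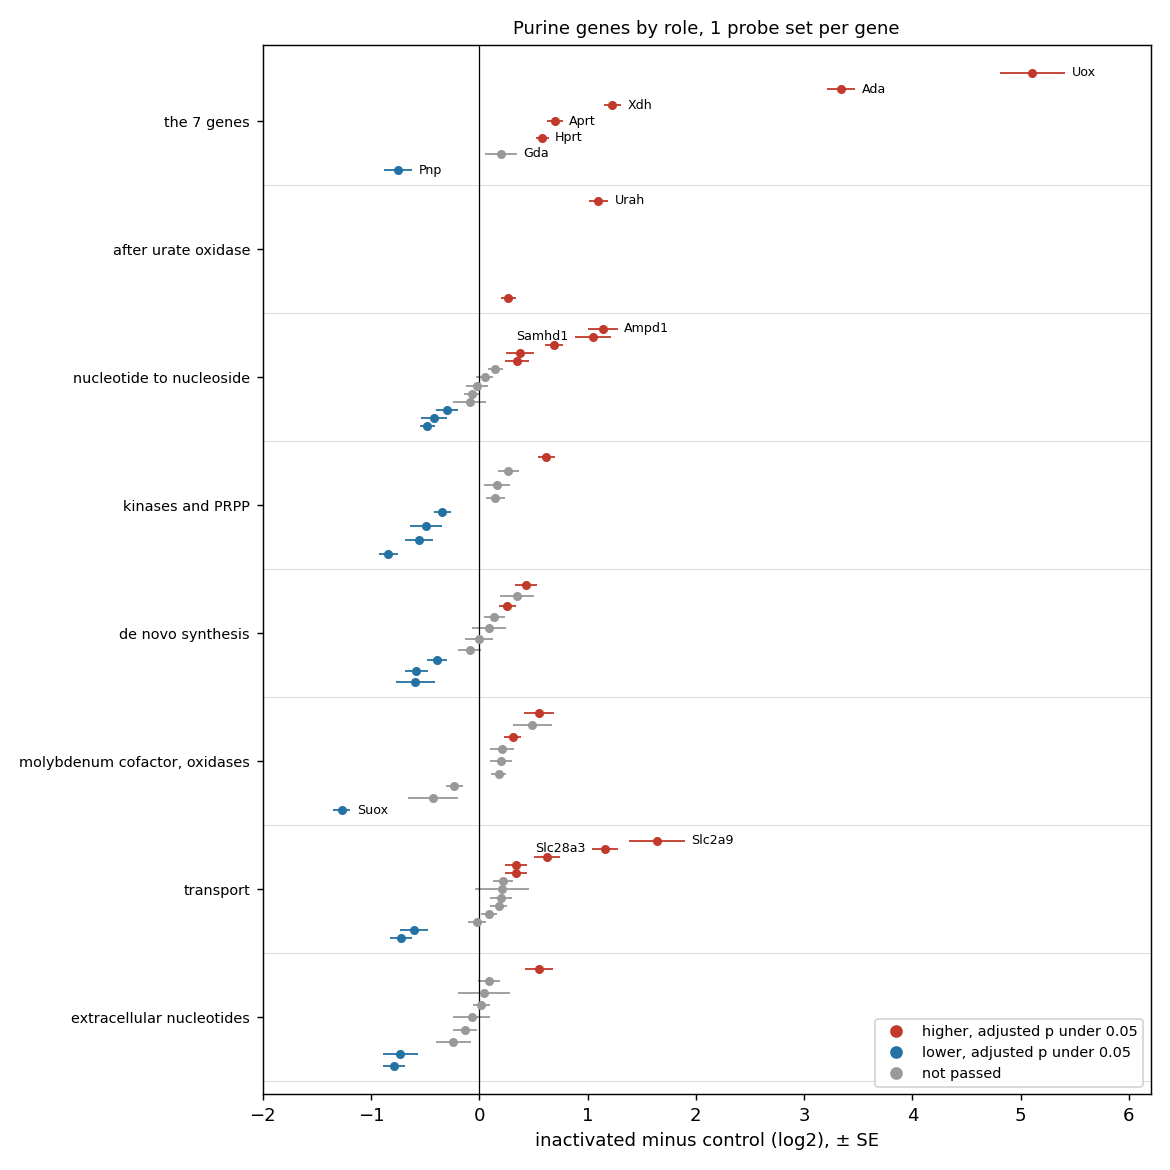
Difference inactivated minus control (log2) ± SE for the 7 genes and 64 further purine genes, 1 probe set per gene, grouped by role and coloured by whether the gene passed an adjusted p of 0.05. Uox and Ada lie beyond 3, and every gene of the other 7 groups lies between -1.27 and 1.64.

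**Figure D4:**
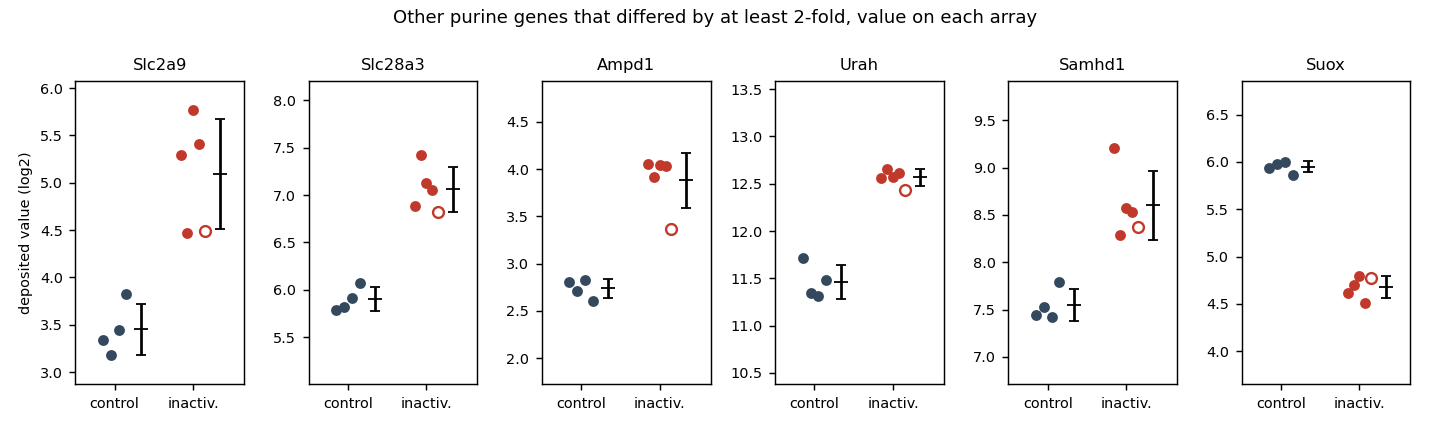
Deposited log2 value on each array for the 6 further purine genes that changed by at least 2-fold, with controls in dark blue, inactivated arrays in red (replicate 5 open) and the mean and SD at the right of each group; all panels span the same number of log2 units. In each panel the groups do not overlap, and in Slc2a9 replicates 2 and 5 are the lowest inactivated arrays.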

How the data were processed

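The labels describe Affymetrix GeneChip mouse arrays hybridised with cRNA labelled from the 3' end. The authors deposited 1 table of log2 values for 45037 probe sets on 9 arrays. The submitters' processing notes name affy and no version; how background, normalisation and summary were done is not given in the sources used here. The log base was read from the range of the values, which were used as deposited. The platform annotation gave 34945 probe sets 1 gene, 932 several and 9160 none. The probe set with the highest mean over the 9 arrays stood for a gene. Groups were compared with limma 3.58.1 in R 4.3.3 (lmFit and eBayes, two-sided, no covariate, 7 residual degrees of freedom), with Benjamini-Hochberg adjustment over all probe sets and a threshold of 0.05; the fit was tested on simulated data. The number of arrays limits the precision. The 7 genes and all lists were chosen with earlier results of these data known. Beyond the 7, the rule named every listed purine gene past the threshold with an absolute log2 difference of 1 or more, the 2 lowest adjusted p-values of each list (1 where fewer than 4 genes were measured), the neighbours of Uox and the 5 genes closest to it.

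Alternatives were quantile normalisation, subtraction of array medians, filters on dim probe sets (25th percentile or median), an intensity trend with a robust prior, blocking on the replicate number, averaging the probe sets of a gene, dropping probe sets whose name ends in _s_at, _x_at or _a_at, sex as a covariate, a stricter threshold (0.01), and omission of 1 array at a time.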

Additional observations from a re-analysis of the deposited data

Results flagged for a closer look

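Over the 10 probe sets of the 7 genes and the 15 further genes named by rule, 50 groups of arrays were searched for 1 array far from the rest (Dixon's ratio of its gap to the whole range), and 4 passed the critical value; chance gives about 1 in 20. For Uox, inactivated replicate 5 (7.92, nearest array 9.23) had a ratio of 0.871. For Ampd1 the same array (3.37, nearest 3.92) had a ratio of 0.802. For Ada, control replicate 3 (4.73, nearest 4.95) had a ratio of 0.835. For Prps1, inactivated replicate 3 (7.43, nearest 7.34) had a ratio of 0.888.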

How the results depend on the processing

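Uox, Xdh, Ada, Pnp, Hprt and Aprt were chosen on this contrast, so their ranges over the 18 or 19 alternatives that measured them are a description only. Uox ranged from 4.99 to 5.39, Ada from 3.27 to 3.44, Xdh from 1.19 to 1.28 and Pnp from -0.82 to -0.66. Leaving out each array in turn, the members' median ranged from 0.67 to 0.73, with 5 to 6 genes higher and 1 lower; the 6th was Gda, without inactivated replicate 2. Without probe sets that can match several transcripts only 4 members remained (Uox, Xdh, Ada and Gda), with a median of 2.28, 3 higher and 0 lower, since every probe set of Pnp, Hprt and Aprt has a name ending in _a_at or _s_at. Of the 64 further purine genes, 18 rose and 15 fell; at a threshold of 0.01 these were 10 and 10, and leaving out each array gave 10 to 18 and 12 to 16, the lowest number of rises being without control replicate 3. Mocos was not called at 0.01 or without control replicate 3. With the replicate block (inactivated replicate 5 as a block of its own) the members' median was 0.67, 5 members were higher and 1 lower, and 13 further genes rose and 14 fell. The numbers do not pair the mice: deviations of same-numbered arrays correlated at -0.27, 0.01, -0.09 and 0.08, and 1 of 4 inactivated arrays correlated best with its own number.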
